A study of Mus musculus with 3 samples.

Results

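The BCL2 family genes described here are 10 genes that protect cells from apoptosis or drive them into it: Bcl2, Bcl2l1, Mcl1, Bcl2a1b and Bcl2a1d on the survival side, Bcl2l11, Bbc3 and Pmaip1 among the BH3-only death genes, and the effectors Bax and Bak1. They were taken by name from the 22548 genes of a CITE-seq matrix, which holds the mRNA, antibody tags and hashtags of each cell. The cells were mouse migratory dendritic cells from lymph nodes that drain the ear, sorted to leave out Langerhans cells and cDC1 by a gate negative for B220, XCR1 and CD326, high for MHCII and low to intermediate for CD11c. Every mouse had MC903, a vitamin D analogue used to inflame mouse skin, on days 0, 2 and 4, and cells were taken on day 5. Every mouse also carried 1 Siglech iCre transgene, a ROSA26 LoxP-STOP-LoxP-RFP allele and 1 knock-in copy of Tnfsf4, the gene of OX40L, so all groups share 1 altered Tnfsf4 copy and the treatment. RFP stays on once Cre has acted and so marks past or present Siglech expression, while BFP reports Tnfsf4. The 4 groups were BFP+RFP+ cells (5200 pooled), BFP-RFP+ cells (5200), BFP+RFP- cells (10400) and BFP-RFP- cells (5200). The sources used here do not give the age, the sex or the number of the mice.

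Cells were kept when 1 hashtag held at least 80% of their hashtag UMIs (unique molecular identifiers, each a counted molecule), with a depth of 1000 mRNA UMIs or more, of which no more than 10% were mitochondrial. This left 5023 of 6079 barcodes: 842 of the BFP+RFP+, 982 of the BFP-RFP+, 2185 of the BFP+RFP- and 1014 of the BFP-RFP- population. Their mRNA UMIs numbered 14140272, 15746616, 35590897 and 14877282 in that order. Median depth lay between 13884 and 15182 UMIs per cell and the median mitochondrial share between 1.94% and 2.22%. The sort label held by its markers: at least 3 of 10 markers of migratory dendritic cells, among them Ccr7 and Fscn1, were found in 95.9% to 96.9% of the cells of each population. Markers of cDC1 summed to between 11.6 and 22.5 UMIs per 1000000 mRNA UMIs (CPM), and markers of Langerhans cells to between 23.8 and 34.8 CPM. UMIs of at least 3 T and NK cell markers were, however, found in 8.08% of the BFP+RFP+, 8.55% of the BFP-RFP+, 8.33% of the BFP+RFP- and 5.92% of the BFP-RFP- cells. Macrophage markers were found in the same way in 1.07%, 2.34%, 0.870% and 2.56%. The cells with at least 3 markers of T and NK cells, of B cells or of macrophages, 561 in all, are called marker-bearing below, and values are given with and without them.

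The family works at the mitochondrial outer membrane. BAX and BAK, once active, open it and release cytochrome c, the survival proteins BCL-2, BCL-XL (the product of Bcl2l1), MCL-1 and A1 (the product of the Bcl2a1 genes) hold them in check, and BH3-only proteins such as BIM (Bcl2l11), PUMA (Bbc3) and NOXA (Pmaip1) bind the survival proteins and so free the effectors. In mice, loss of BIM prolongs the life of dendritic cells, and A1 is encoded by several near-identical gene copies.

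Those copies limit what can be read from the Bcl2a1 genes, since the authors' counting could split or lose reads that fit more than 1 copy. A stretch of the promoter of 3 of them is shown to let the copies be compared before their annotated starts, where no read is counted, and because the 3 genes were all higher in cells with more of the CD11b tag. The sequences are from RefSeq (GRCm38.p6), where all 3 genes had an entry. Capitals mark the bases that differ from Bcl2a1b.
Bcl2a1b: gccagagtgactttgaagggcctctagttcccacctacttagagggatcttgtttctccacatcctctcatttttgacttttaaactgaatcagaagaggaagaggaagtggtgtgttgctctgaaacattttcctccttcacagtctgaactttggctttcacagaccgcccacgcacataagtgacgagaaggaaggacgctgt
Bcl2a1d: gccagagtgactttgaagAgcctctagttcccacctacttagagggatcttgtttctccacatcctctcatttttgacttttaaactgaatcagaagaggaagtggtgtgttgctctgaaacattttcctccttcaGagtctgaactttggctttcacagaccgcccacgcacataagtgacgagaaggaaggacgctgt
Bcl2a1a: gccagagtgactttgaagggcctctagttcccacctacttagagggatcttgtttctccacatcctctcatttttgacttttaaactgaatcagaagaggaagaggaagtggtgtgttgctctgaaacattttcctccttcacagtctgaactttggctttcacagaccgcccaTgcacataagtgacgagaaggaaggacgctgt
The Bcl2a1b stretch is chr9:89199023-89199228 on the plus strand, the Bcl2a1d stretch chr9:88731851-88732050 on the minus strand and the Bcl2a1a stretch chr9:88956714-88956919 on the plus strand. Of the 206 bases of Bcl2a1b, 205 were identical in Bcl2a1a and 198 in Bcl2a1d, which had 2 substitutions and lacked 6 bases. The transcripts were not compared here, single copies are given as uncertain for the counting reason above, and a sum over the copies is given beside them.

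All 4 populations were captured together as 1 pool, which makes each of them a single sample, and no difference between them could be tested. Levels are summed UMIs per 1000000 mRNA UMIs (CPM), ratios are log2 ratios of summed levels with a pseudocount of 0.5 UMI, and all intervals are exact 95% intervals that cover counting error only. A ratio is called past the fold when its log2 is at least 0.5 in size (1.41-fold) in a gene with at least 100 UMIs in the pair of groups. All 10 genes passed that minimum in all 8 comparisons over all cells.

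Across the reporters the family was close to level. Bcl2l1 was higher in RFP+ cells in both strata, Bcl2l11 was higher in RFP+ cells within BFP+, and Bcl2, whose UMIs lay mostly in marker-bearing cells, varied most. Between BFP+RFP+ and BFP+RFP- cells, Bcl2l11 was past the fold upward, as were 4.34% of 10139 genes, and no member was past it downward (6.79%). Between BFP-RFP+ and BFP-RFP- cells none was past it in either direction, where 5.21% of 9612 genes were upward and 3.91% downward. None was past it between BFP+RFP+ and BFP-RFP+ cells either (2.53% of 9463 genes upward and 9.31% downward). Between BFP+RFP- and BFP-RFP- cells Bcl2 alone was, upward (2.58% of 10237 genes, and 5.39% downward). The median of the 10 ratios was -0.08 for RFP within BFP+ and 0.03 for RFP within BFP-, against -0.03 and -0.01 over all genes, and -0.05 for BFP within RFP+ and -0.07 for BFP within RFP-, against -0.09 and -0.07.

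**Figure D1:**
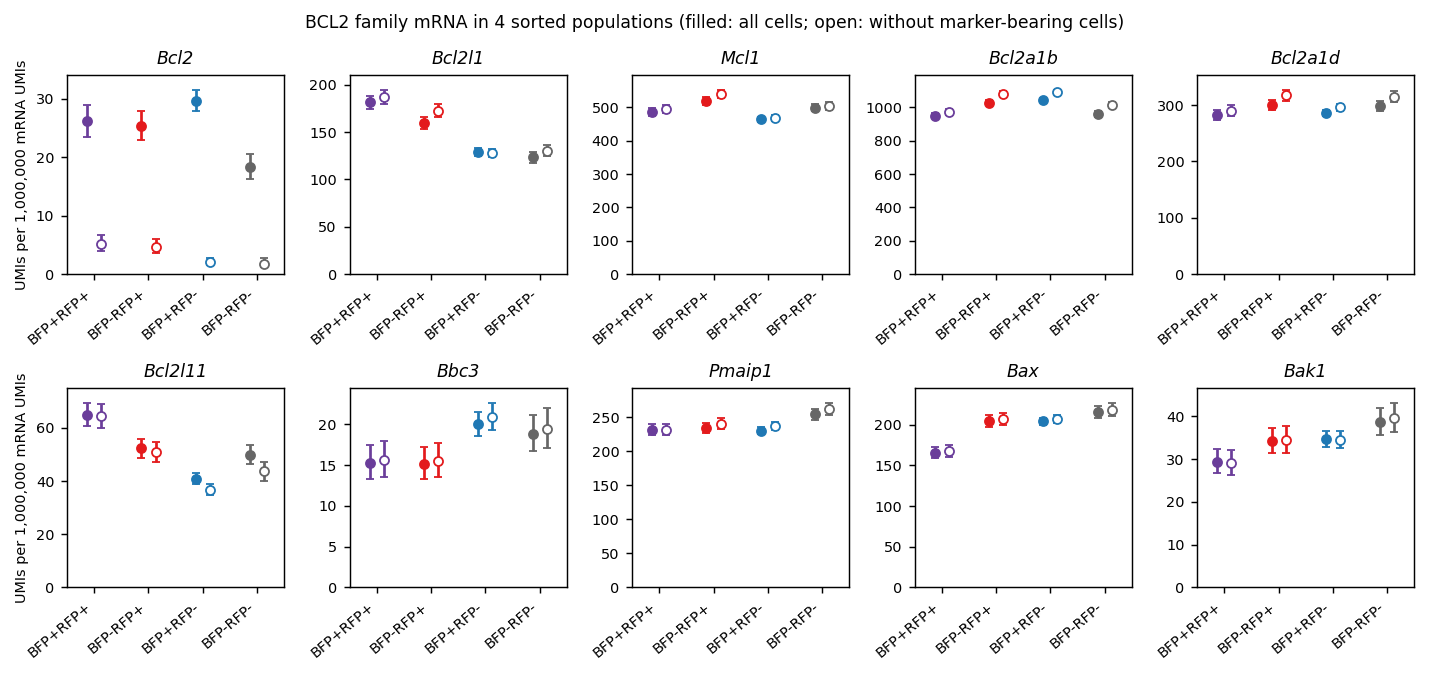
Level of the 10 BCL2 family genes in the 4 sorted populations, in UMIs per 1000000 mRNA UMIs, over all cells (filled) and without marker-bearing cells (open), with exact 95% counting intervals. Bcl2 drops to between 1.80 and 5.18 without marker-bearing cells, while Bcl2l1 and Bcl2l11 keep their highest level in BFP+RFP+ cells.

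Bcl2l1, whose product BCL-XL protects many long-lived and activated cells, stood at 181 CPM in BFP+RFP+ cells (interval 174 to 189), 159 in BFP-RFP+ cells (153 to 166), 129 in BFP+RFP- cells (125 to 133) and 123 in BFP-RFP- cells (118 to 129). Both RFP+ populations were thus above both RFP- populations, and the intervals of the RFP+ and RFP- cells did not overlap. The log2 ratio of RFP+ over RFP- was 0.49 within BFP+ (0.42 to 0.56), just under the fold, and 0.37 within BFP- (0.28 to 0.46). Without marker-bearing cells it was 0.55 and 0.40. Over all cells it was above 0 within BFP- in 8 of 8 tag strata, and within BFP+ in 7 of 8. These strata were made by splitting the cells at the median of each of the 4 tags. Strata of different tags share cells and are therefore not independent of each other. The share of cells with a Bcl2l1 UMI was 54.8% in BFP+RFP+, 45.4% in BFP-RFP+, 43.9% in BFP+RFP- and 37.1% in BFP-RFP- cells. With each cell thinned to 5000 UMIs, which left out 56, 82, 153 and 86 shallower cells, the shares were 37.9%, 30.3%, 27.0% and 25.0%. The share was 15.6% in the 96 B marker-bearing cells (median depth 5270 UMIs) and 16.25% in the 160 T and NK marker-bearing cells with at most 4 migratory markers (median depth 7208), and whether these lack the gene was not tested. The BFP contrast of Bcl2l1 was smaller, at 0.19 (0.11 to 0.27) within RFP+ and 0.06 (-0.01 to 0.14) within RFP-.

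Bcl2l11, the gene of the BH3-only protein BIM, had 65.0 CPM in BFP+RFP+ cells (60.9 to 69.3), 52.3 in BFP-RFP+ cells (48.8 to 56.0), 40.9 in BFP+RFP- cells (38.9 to 43.1) and 49.8 in BFP-RFP- cells (46.3 to 53.5). It was highest in cells with both reporters and lowest in those with BFP alone, and the populations negative for BFP lay between, with overlapping intervals. The ratio of RFP+ over RFP- was 0.67 within BFP+ (0.55 to 0.79) and 0.07 within BFP- (-0.07 to 0.22). The BFP ratio had opposite signs, 0.31 within RFP+ (0.18 to 0.45) and -0.28 within RFP- (-0.41 to -0.15). Over all cells the RFP ratio within BFP+ was above 0 in 8 of 8 tag strata, from 0.41 to 0.93, and the BFP ratio was above 0 in 8 of 8 within RFP+ and in 0 of 8 within RFP-. Without marker-bearing cells the levels were 64.5, 50.8, 36.7 and 43.7 CPM in the order above, and the RFP ratio within BFP+ was 0.81. In the tag strata that ratio then ran more widely, from 0.11 to 1.09, and was above 0 in 8 of 8. The BFP ratio without marker-bearing cells was above 0 in 7 of 8 strata within RFP+, with a lowest value of -0.18. Within RFP- it was above 0 in 0 of 8. The share of cells with a Bcl2l11 UMI was 38.2%, 32.7%, 29.7% and 31.1%, and after thinning to 5000 UMIs 17.4%, 17.8%, 14.2% and 17.6%, so that at equal depth BFP+RFP- cells alone stood lower and no order is read among the others. In CPM, both the survival gene Bcl2l1 and the death gene Bcl2l11 thus had their highest level in BFP+RFP+ cells.

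Bcl2, the founding survival gene of the family, had 26.1 CPM in BFP+RFP+, 25.3 in BFP-RFP+, 29.6 in BFP+RFP- and 18.3 in BFP-RFP- cells, but few cells carried it. Only 409 cells (8.14%) had a Bcl2 UMI, and 89.6% of its 2095 UMIs were in marker-bearing cells, against 7.96% (Bcl2a1b) to 18.04% (Bcl2l11) for the other 9 members. Of the 183 cells with at least 3 Bcl2 UMIs, 151 were marker-bearing for T and NK cells, 14 for B cells and 6 for macrophages. Some of these were so for more than 1 list, and 16 of the 183 were not marker-bearing. Its ratio of 0.70 (0.50 to 0.89) for BFP+ over BFP- within RFP- was 0.20 (-0.48 to 0.95) without marker-bearing cells. The T and NK marker-bearing share of these 2 populations was 8.33% against 5.92%. BFP-RFP+ cells had the largest such share, 8.55%, at 25.3 CPM of Bcl2, and a link between share and level was not tested.

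In the 4462 cells that were not marker-bearing, Bcl2 had 5.18 CPM in BFP+RFP+ cells (3.99 to 6.60), 4.68 in BFP-RFP+ cells (3.60 to 5.97), 2.09 in BFP+RFP- cells (1.61 to 2.66) and 1.80 in BFP-RFP- cells (1.15 to 2.68). RFP+ over RFP- was then 1.31 (0.79 to 1.83) within BFP+ and 1.36 (0.68 to 2.12) within BFP-, above 0 in 8 of 8 tag strata each, from 65, 64, 65 and 24 UMIs in the order of populations above. A few cells carried much of this: 7 BFP+RFP+ cells with at least 3 UMIs each held 43 of the 65, 7 BFP-RFP+ cells 27 of the 64, 2 BFP+RFP- cells 11 of the 65, and no BFP-RFP- cell had 3. The remaining level was 1.25% (1.08 to 1.43) of that in T and NK marker-bearing cells. For 9 other genes of T cells, chosen after their values were seen, that share ran from 0.246% for Themis to 3.32% for Cd96 in 8 and was 67.7% for Il7r, which migratory dendritic cells can also express. Free RNA or T cells with fewer than 3 detected markers as a source of these UMIs was not tested.

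**Figure D2:**
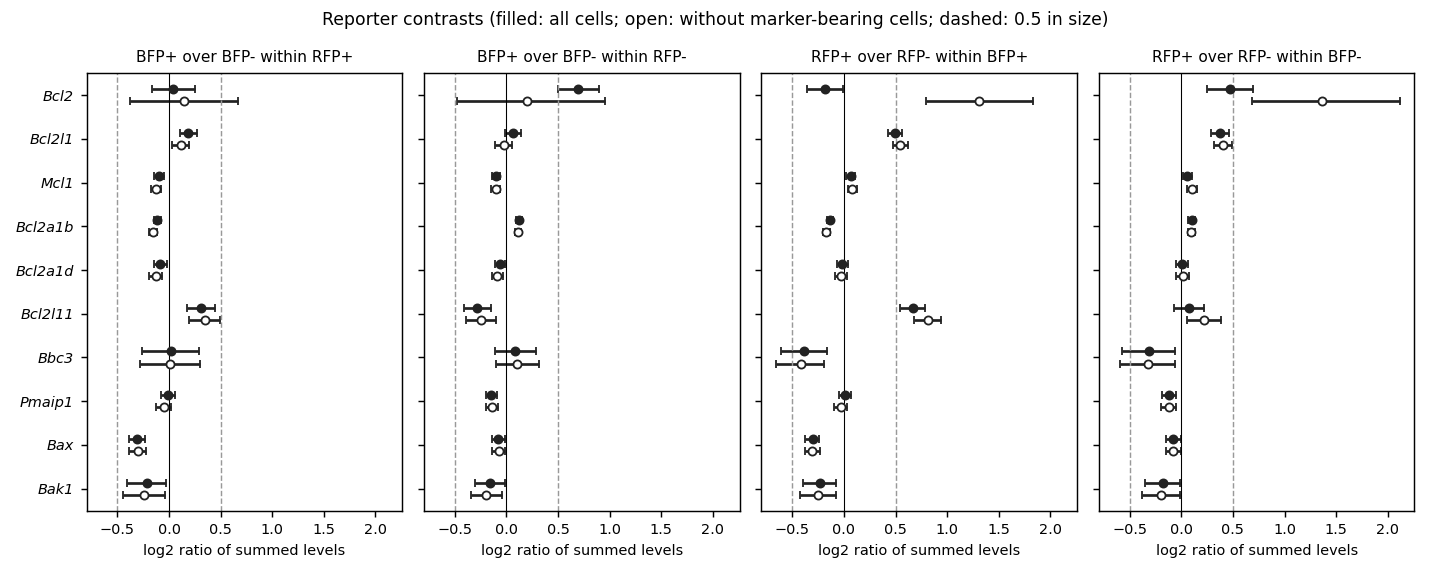
Log2 ratio of summed levels for each reporter contrast, over all cells (filled) and without marker-bearing cells (open), with exact 95% counting intervals and dashed lines at 0.5 in size. Bcl2l11 lies past the line for RFP within BFP+ in both sets of cells (0.67 and 0.81), and Bcl2 moves most when marker-bearing cells are left out.

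The remaining survival genes were close to level. Mcl1, whose short-lived product restrains BAK, had 486 CPM in BFP+RFP+, 519.6 in BFP-RFP+, 465 in BFP+RFP- and 499 in BFP-RFP- cells. Its 4 reporter ratios lay between -0.10 and 0.06, lower in BFP+ cells and higher in RFP+ cells in both strata. Bcl2a1b had 949.9, 1029, 1044 and 961 CPM in the same order, with ratios between -0.14 and 0.12 whose sign differed between strata. Bcl2a1d had 283, 299.7, 286 and 299 CPM. The 4 measured Bcl2a1 copies together summed to 1359 CPM (1340 to 1378) in BFP+RFP+, 1499 in BFP-RFP+, 1508 in BFP+RFP- and 1458 in BFP-RFP- cells, lowest in cells with both reporters. Of the copies that are no members, Bcl2a1a had 125, 169, 177 and 198 CPM and a ratio of -0.50 for RFP within BFP+ and -0.43 for BFP within RFP+. Bcl2a1c, with 12 to 60 UMIs per population and too few in either pair for the fold, had -0.94 (-2.02 to -0.08) and -1.03 (-2.18 to -0.05).

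Of the other BH3-only genes, Bbc3, a p53 target whose product PUMA binds all the survival proteins, was lower with RFP in CPM. It had 15.3 CPM in BFP+RFP+ cells (13.3 to 17.5), 15.1 in BFP-RFP+ cells (13.3 to 17.2), 20.0 in BFP+RFP- cells (18.5 to 21.5) and 18.8 in BFP-RFP- cells (16.7 to 21.2). The RFP ratio in CPM was -0.38 (-0.61 to -0.17) within BFP+ and -0.32 (-0.57 to -0.06) within BFP-, below the fold. In CPM this was the reverse direction of Bcl2l1. The share of cells with a Bbc3 UMI was 19.4%, 18.4%, 24.5% and 21.4% in the order above. After thinning to 5000 UMIs it was 8.52%, 9.67%, 9.35% and 9.81%. BFP-RFP+ cells then stood above BFP+RFP- cells, and no RFP order is read at equal depth. Pmaip1, whose product NOXA binds MCL-1 and A1, had 231, 234, 229.6 and 254 CPM, so that BFP-RFP- cells alone stood apart.

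The effectors were lowest in cells with both reporters. Bax had 165 CPM in BFP+RFP+ cells (159 to 172), 204 in BFP-RFP+ cells (197 to 212), 204 in BFP+RFP- cells (199.5 to 209) and 215 in BFP-RFP- cells (208 to 223). The BFP+RFP+ interval lay below the other 3, and the 2 contrasts with it had close ratios, -0.31 (-0.38 to -0.23) for BFP within RFP+ and -0.30 (-0.37 to -0.24) for RFP within BFP+. Both were below 0 in 8 of 8 tag strata. Bak1 had 29.4, 34.2, 34.6 and 38.7 CPM in the same order, with ratios from -0.23 to -0.16 in the 4 contrasts. None of these was past the fold, and none changed by more than 0.04 without marker-bearing cells.

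The members were also compared between marker-bearing cells and the rest. The 382 T and NK marker-bearing cells (median 13498 UMIs) were set against the 4462 cells that were not marker-bearing. They had Bcl2 at 248 against 3.08 CPM, Bcl2l11 at 72.2 against 45.7 CPM and Bcl2l1 at 99.4 against 148 CPM. Bcl2 and Bcl2l11 were past the fold upward (25% of 10716 genes were) and Bcl2l1, Bcl2a1b and Bcl2a1d downward (9.82%). These cells also held a median of 9 of 10 migratory dendritic cell markers, and 195 of them had 9 or 10. In those, Bcl2 was 75.0 CPM at a median depth of 20553 UMIs, against 865 CPM in the 160 with at most 4 migratory markers, at a median depth of 7208. The 96 B marker-bearing cells had 117 CPM of Bcl2 and 89.8 of Pmaip1, against 3.08 and 241 CPM in the rest. There, Bcl2 alone was past the fold upward (34.7% of 10512 genes were) and Pmaip1, Bbc3, Bax, Bak1, Bcl2a1b and Bcl2a1d downward (23.7%). The 70 macrophage marker-bearing cells had 93.1 CPM of Bcl2l11 and 51.9 of Bak1, against 45.7 and 34.5 CPM in the rest. Bcl2, Bcl2l11 and Bak1 were past the fold upward in them (29% of 10530 genes were) and Bcl2l1, Bcl2a1b, Bcl2a1d and Bbc3 downward (21.1%).

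**Figure D3:**
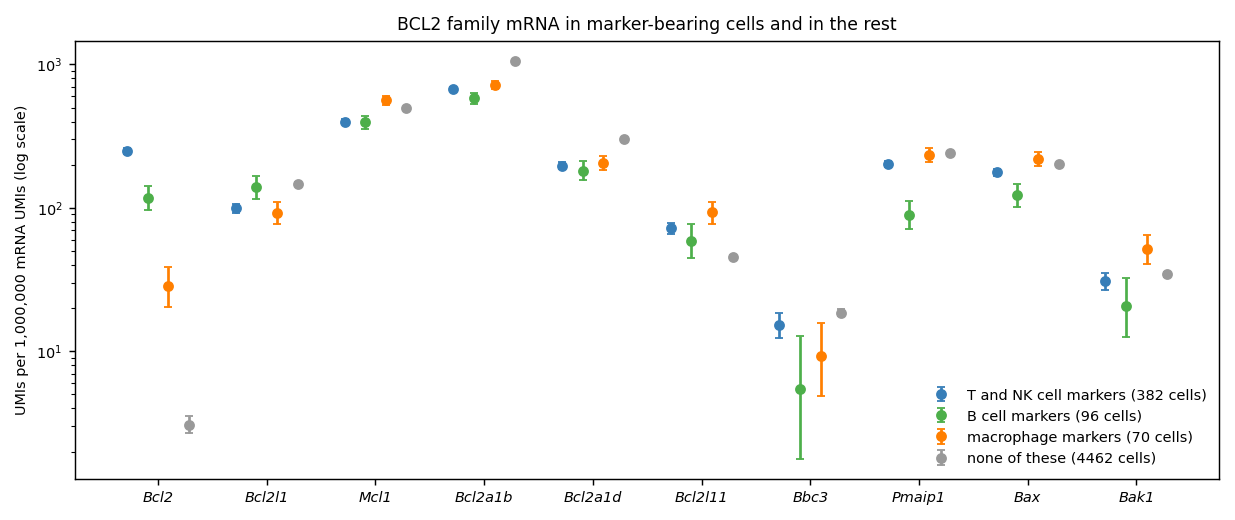
Level of each member, in UMIs per 1000000 mRNA UMIs on a log axis, with exact 95% counting intervals. Shown are cells with at least 3 T and NK cell, B cell or macrophage markers and the 4462 cells that were not marker-bearing. Bcl2 spans from 248 to 3.08, far wider than any other member.

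The members were next followed across the surface proteins. For each of the 4 antibody tags the 5023 cells were ranked by raw tag UMIs and cut into 4 bins of 1255 or 1256 cells, bin 1 the lowest and bin 4 the highest. Depth was higher at each step of every tag, for CD11b with median mRNA UMIs of 11702, 14112.5, 15505 and 17380 from bin 1 to bin 4, so values with bins cut by tag UMIs per mRNA UMI are given beside the results described most. T and NK marker-bearing cells gathered in the lowest bins of CD172a (203, 37, 57 and 97 cells) and CD11b (186, 70, 60 and 78), and macrophage marker-bearing cells in the highest bin of CD11b (2, 4, 11 and 60).

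CD11b, an integrin chain of myeloid cells, went with the A1 genes. From bin 1 to bin 4, Bcl2a1b had 704, 857, 1092 and 1243 CPM, Bcl2a1d 209, 246, 319 and 349.6 CPM, and Bak1 26.1, 29.1, 32.8 and 44.9 CPM. Each was higher at every step. Bin 4 over bin 1 was 0.82 for Bcl2a1b (0.79 to 0.85), 0.74 for Bcl2a1d (0.68 to 0.80) and 0.78 for Bak1 (0.62 to 0.95). With Bcl2 at -2.78, 3 members were past the fold upward and 1 downward, where 8.93% and 12.7% of 10047 genes were. Bcl2a1a had 80.1, 132, 178 and 249 CPM and a ratio of 1.63. Without marker-bearing cells the ratios were 0.73 for Bcl2a1b, 0.64 for Bcl2a1d, 0.69 for Bak1 and 1.53 for Bcl2a1a, so that they were nearly as large without the macrophage marker-bearing cells of the highest bin, while Bcl2 was 0.05 (-0.55 to 0.69). With bins cut by tag UMIs per mRNA UMI, Bcl2a1b was 0.59, Bcl2a1d 0.57 and Bak1 0.87, all still past the fold.

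Within each population, again without marker-bearing cells, the A1 ratios were larger in RFP- cells. Bcl2a1b was 0.21 in BFP+RFP+ and 0.31 in BFP-RFP+, against 1.02 in BFP+RFP- and 1.10 in BFP-RFP- cells. Bcl2a1d was 0.34 and 0.46, against 0.90 and 0.79. Bcl2a1a, at 1.11 and 1.08 against 1.69 and 1.71, and Bak1, at 0.16 and 0.29 against 0.83 and 0.78, had the same order. The interval of every A1 ratio in RFP+ cells lay below that of every one in RFP- cells for Bcl2a1b, and no test of that difference is possible with 1 sample per population.

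**Figure D4:**
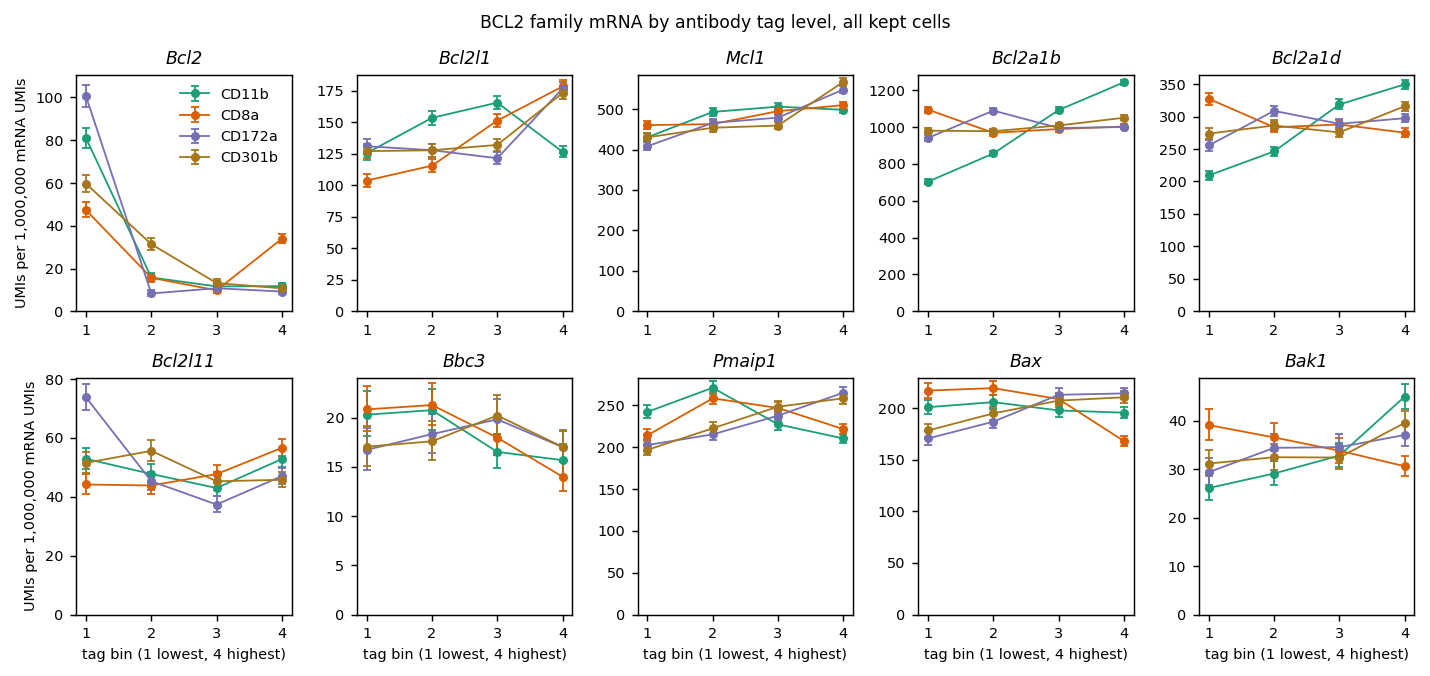
Level of each member, in UMIs per 1000000 mRNA UMIs, in the 4 bins of each antibody tag over all kept cells, with exact 95% counting intervals. Bcl2a1b climbs from 704 to 1243 with CD11b, Bcl2l1 from 104 to 178 with CD8a, and Bcl2 is highest in the lowest bin of every tag.

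CD8a, carried by some dendritic cells and by cytotoxic T cells, went with Bcl2l1. Its levels were 104, 116, 151 and 178 CPM from bin 1 to bin 4, a ratio of 0.78 (0.70 to 0.86), and 0.70 without marker-bearing cells. The ratio was above 0 in all 4 populations, from 0.25 to 1.17 over all cells and from 0.24 to 0.75 without marker-bearing cells, largest in the BFP+ populations in both. The share of BFP+RFP+ cells was also higher at each step, with 7.72%, 8.997%, 19.7% and 30.6% from bin 1 to bin 4. Bbc3 went the other way, with 20.8, 21.3, 17.97 and 14.0 CPM and a ratio of -0.57 (-0.80 to -0.35), below 0 in all 4 populations. Bcl2l1 was the 1 member past the fold upward and Bbc3 the 1 downward, where 5.61% and 12.6% of 9997 genes were. With bins cut by tag UMIs per mRNA UMI, Bcl2l1 was 0.33 and Bbc3 -0.21, both with the same sign and under the fold. Bax (217, 219, 209 and 168 CPM) and Bak1 (39.1, 36.5, 33.8 and 30.6 CPM) were also lowest in bin 4, at ratios of -0.37 and -0.35, and below 0 in all 4 populations.

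CD172a, the signal-regulatory protein SIRPα that marks cDC2, went against Bcl2l11. Its levels were 73.7, 45.3, 37.4 and 47.0 CPM from bin 1 to bin 4, so that the lowest bin stood apart from the other 3. The ratio was -0.65 (-0.77 to -0.53) and -0.68 without marker-bearing cells, and it was below 0 in all 4 populations, from -0.59 to -0.46 over all cells and from -0.90 to -0.37 without marker-bearing cells. With bins cut by tag UMIs per mRNA UMI it was -0.56. Bcl2, at -3.44 over all cells and -1.33 (-1.95 to -0.74) without marker-bearing cells, was the other member past the fold downward (16.8% of 10081 genes were), and no member was past it upward (8.32%). In the other direction and under the fold, Mcl1 had 408, 466, 479 and 548 CPM and Pmaip1 203, 215, 238 and 265 CPM. Over all cells each was thus higher at every step. Without marker-bearing cells Pmaip1 had 235, 213, 239 and 269 CPM, lowest in bin 2. The ratios were then 0.32 for Mcl1 and 0.20 for Pmaip1. With bins cut by tag UMIs per mRNA UMI, Mcl1 was 0.22 and Pmaip1 0.57. Over all genes the median of this ratio was -0.12, and relative to it Mcl1, at 0.43, and Pmaip1, at 0.39, lay further up.

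CD301b, a lectin encoded by Mgl2 and carried by a subset of cDC2 in skin, was followed for Mcl1, Bcl2l1 and Pmaip1. By raw tag UMIs, Mcl1 had 430.1, 454, 459 and 567 CPM from bin 1 to bin 4 and Bcl2l1 127, 128, 132 and 173 CPM, so that bin 4 stood above 3 nearly level bins. The ratios were 0.40 (0.36 to 0.44) and 0.45 (0.37 to 0.52), both above 0 in all 4 populations. With bins cut by tag UMIs per mRNA UMI, Mcl1 was 0.18 and Bcl2l1 -0.06, so that the sign of Bcl2l1 depends on how the bins are cut. The death gene Pmaip1 had 197, 223, 249 and 259 CPM by raw tag UMIs, higher at every step. Its ratio was 0.39 (0.33 to 0.45), above 0 in all 4 populations, and 0.499 with bins cut by tag UMIs per mRNA UMI. With raw bins, the Bcl2l1 ratio was 0.24 (0.08 to 0.40) in BFP+RFP+ cells and 1.20 (0.97 to 1.43) in BFP-RFP- cells. Only Bcl2 was past the fold, downward at -2.47 (11.4% of 10008 genes were, and 4.94% upward), and it was -0.24 (-0.80 to 0.34) without marker-bearing cells.

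**Figure D5:**
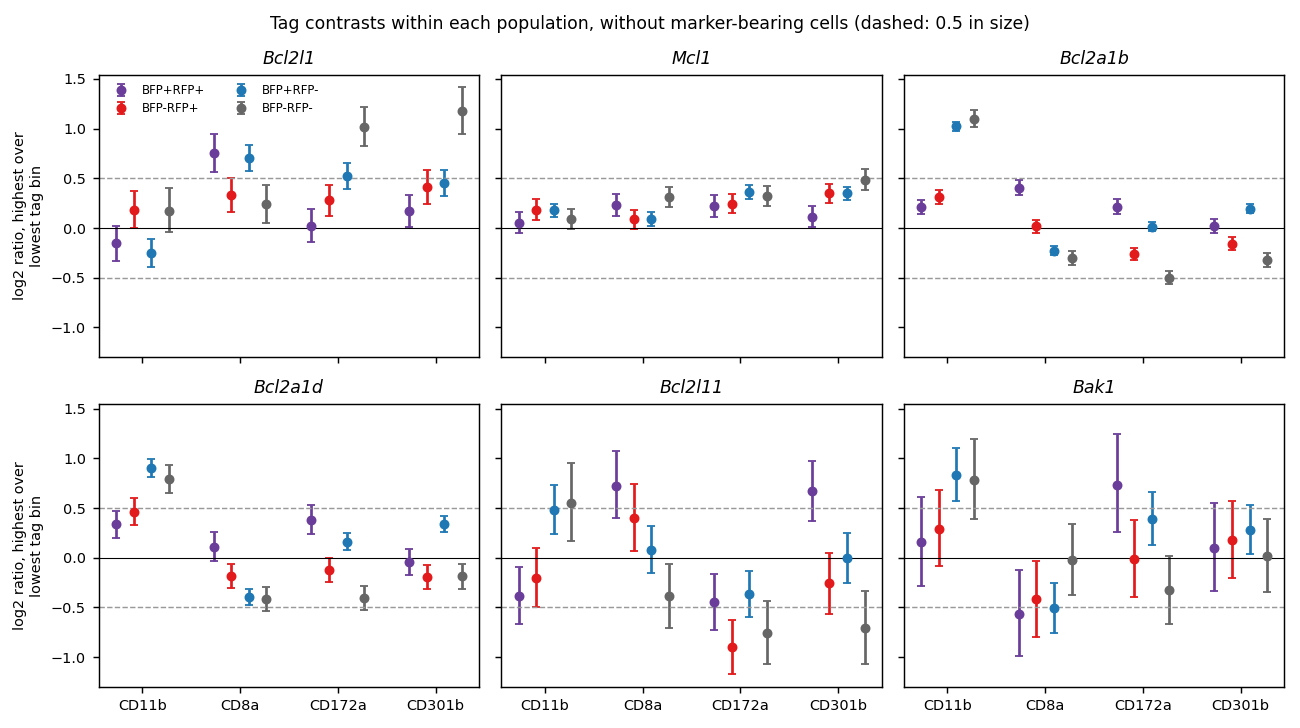
Log2 ratio of the highest over the lowest tag bin within each population for 6 members, without marker-bearing cells, with exact 95% counting intervals and dashed lines at 0.5 in size. For CD11b, Bcl2a1b reaches 1.02 and 1.10 in RFP- cells, against 0.21 and 0.31 in RFP+ cells.

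Other genes of the pathway are read against the shares of all genes past the fold given above for each contrast. Of 15 further family genes 10 had enough UMIs, and Bcl2l14, a family member whose role in death is disputed, was past the fold for both BFP contrasts. It was lower in BFP+ cells, at 37.8 CPM in BFP+RFP+ against 57.3 in BFP-RFP+ cells (-0.60) and at 50.4 in BFP+RFP- against 73.7 in BFP-RFP- cells (-0.55). It was higher in the highest than in the lowest bin of CD172a (67.4 against 33.5 CPM, 1.01) and of CD301b (68.7 against 36.5 CPM, 0.91), and lower for CD8a (-0.54). Among these 10, of which Bcl2a1a is 1, counts past the fold were 1 lower for BFP within RFP+ (9.31% of all genes), 2 lower for BFP within RFP- (5.39%) and none for RFP in either stratum. By tag they were 1 higher for CD11b (Bcl2a1a), 2 lower for CD8a, 2 higher and 1 lower for CD172a and 1 higher for CD301b, where the shares of all genes were 8.93%, 12.6%, 8.32% and 16.8%, and 4.94%.

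Of 23 caspase path genes, all 23 measured, 3 were lower for BFP within RFP+ (9.31% of all genes), none was past the fold for BFP within RFP-, 1 was lower for RFP within BFP+ (6.79%) and 1 higher for RFP within BFP- (5.21%). The best covered was Cycs, the gene of cytochrome c, with 55.7 CPM in BFP+RFP+ against 80.8 in BFP-RFP+ cells (-0.54, -0.67 to -0.41). By tag, Apaf1, the scaffold that cytochrome c activates, was higher with CD11b (157 CPM in bin 4 against 103 in bin 1, 0.62), Cflar, an inhibitor of caspase-8, was higher with CD172a (397 against 270.0 CPM, 0.55, but 0.43 and under the fold without marker-bearing cells), Casp8 itself was lower with CD172a (47.4 against 70.9 CPM, -0.58), and Xiap, a caspase inhibitor, was higher with CD8a (73.5 against 51.7 CPM, 0.51). Past the fold were 1 higher and 2 lower of the 23 for CD11b (8.93% and 12.7% of all genes), 1 higher for CD8a (5.61%), 1 higher and 5 lower for CD172a (8.32% and 16.8%) and 1 lower for CD301b (11.4%). Some of these values changed without marker-bearing cells. Birc5, which cycling cells express, was then 0.52 with CD172a, against -1.26 over all cells, and 0.33 with CD11b, against -0.51. Likewise Dffb with CD172a was -0.38 and Casp2 with CD11b -0.49, both under the fold.

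Of 21 upstream regulators, 19 or 20 of them measured, 2 were lower for BFP within RFP- (5.39% of all genes) and 1 lower for RFP within BFP- (3.91%), and none was past the fold in the other 2 contrasts. Stat5a, which acts below cytokine receptors, was higher in the highest bin of CD11b (102 against 72.2 CPM, 0.50, but 0.46 and under the fold without marker-bearing cells) and CD172a (107 against 70.2 CPM, 0.61, and 0.54 without them). Mdm2, the inhibitor of p53, and Foxo3, a transcription factor that can induce Bcl2l11, were lower in the highest bin of CD8a, at 50.05 against 74.3 CPM (-0.57) and 23.5 against 35.7 CPM (-0.61). Myc (-1.82 for CD11b and -2.18 for CD172a), Foxo1 (-0.51 and -0.64) and Trp53 (-0.52 and -0.58) were lower in the highest bins of CD11b and CD172a, whose lowest bins held the most T and NK marker-bearing cells. Without marker-bearing cells Foxo1 was -0.16 and -0.28 and Trp53 -0.32 and -0.26, under the fold, and Myc had fewer than 100 UMIs.

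The genes whose level most resembled each member were sought over 16 units, each population cut into the 4 CD11b bins, among 6313 genes. These correlations describe units that share 1 capture and differ in depth. Bcl2 was most like Gimap6, Lef1 and Cd3g (Pearson r 0.96, 0.94 and 0.94), genes of T cells. Bcl2l1 was most like Plscr1 (0.95), Baz2a (0.93) and Tcf4 (0.91), Bcl2a1b like H3f3a (0.98), Creb5 and Psmb8 (both 0.96), Bcl2a1d like Rhoc and Tmem131 (both 0.96), and Mcl1 like Rgs1 (0.87), Cd274 (0.86) and Wnk1 (0.85). Bak1 was most like Spi1 (0.97), Anxa4 (0.96) and Ctss (0.95), and Bax like Wdr91 (0.91), P3h2 and Tbc1d13 (both 0.90). Bbc3 was most like Gadd45a (0.88), Ccng2 (0.87) and Ypel2 (0.85), Pmaip1 like Zfp644 (0.92), Rab8b (0.91) and Gpcpd1 (0.88), and Bcl2l11 like Bcl3 (0.80), Maff (0.78) and Ivns1abp (0.76), the loosest match of the 10. Single cells of at least 5000 UMIs that were not marker-bearing (4175 cells) were compared as well. Among them the closest pair of members was Bcl2a1b with Bcl2a1d (r 0.33), whose reads may not be told apart. The other pairs lay between -0.18 and 0.18.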

How the data were processed

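The deposited matrix holds raw UMI counts, for 6079 barcodes, 22548 genes, 4 tags and 4 hashtags. Per the file headers its software was Cell Ranger 7.0.0, and the build, per the submitters' processing notes, was GRCm39 (mm39). The sources used here do not give the cell calling settings. Gene symbols are those of the deposited feature list. The hashtag of each population is named in the authors' deposited feature notes.

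Cells were assigned by hashtag share (5380 of 6079 barcodes reached 80%, in kept cells from at least 33 hashtag UMIs), then filtered on depth and mitochondrial share. This removes doublets between populations only, and doublets within a population remain. No doublet caller was run. UMIs were summed per group and scaled to 1000000 mRNA UMIs, with exact Poisson intervals for levels, conditional binomial intervals for ratios and Clopper-Pearson intervals for shares, all at 95% and for counting error only. Tag bins were cut by rank of raw tag UMIs, with ties broken by matrix order. Between 197 and 743 cells lay within 10% of a boundary of the lowest or highest bin. Scripts used Python 3.11.15, numpy 2.4.6, pandas 2.3.3 and scipy 1.17.1 and were tested on simulated data.

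Named besides the members were genes of 3 lists past the fold with at least 100 UMIs, the best covered of which are given, and the 3 genes most like each member with at least 500 UMIs, among genes with at least 1000 UMIs. One gene that this rule names is not reported here. The members, lists and comparisons were chosen with earlier results of these data known.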

Additional observations from a re-analysis of the deposited data

Results flagged for a closer look

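Several members had ratios of opposite sign in different populations, with intervals of counting error that left out 0. None of these differences between populations could be tested, since each population is 1 sample. For BFP+ over BFP-, Bcl2a1b was -0.11 within RFP+ and 0.12 within RFP-, and Bcl2l11 was 0.31 within RFP+ and -0.28 within RFP-. For RFP+ over RFP-, Bcl2 was -0.18 within BFP+ and 0.47 within BFP-, a split that was gone without marker-bearing cells (1.31 and 1.36), and Bcl2a1b was -0.14 within BFP+ and 0.10 within BFP-.

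Tag ratios of the highest over the lowest bin, over all cells and looked at where both sizes were at least 0.3, were opposite for the members that follow. With CD11b, Bcl2l11 was -0.33 in BFP+RFP+ and 0.57 in BFP-RFP- cells. With CD172a, Bcl2a1b was 0.33 in BFP+RFP+ and -0.40 in BFP-RFP- cells, and Bcl2a1d was 0.50 and -0.32. With CD301b, Bcl2l11 was 0.38 in BFP+RFP+ and -0.47 in BFP-RFP- cells. Bbc3 with CD172a ran from -0.46 to 0.45 across the populations, and its intervals are not given here. Without marker-bearing cells the highest Bcl2a1b ratio with CD172a was 0.21, under the size looked at.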

How the results depend on the processing

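No paired analysis was possible because the populations hold 1 sample apiece and no test was run. Each of the 80 ratios of a member was recomputed under 9 alternatives for the reporter contrasts and 12 for the tags, 840 values in all. Of these, 603 stayed within their counting interval, 234 left it and 3 came from ratios past the fold that changed sign. One alternative, no minimum of UMIs for a gene, could not move any ratio, since all 10 members passed the minimum. Its 80 values are among the 603, and it is 1 of the 9 and of the 12 alternatives. Sign changes of ratios under the fold, such as that of Bcl2l1 with CD301b given above, were not counted apart. Past the fold under every alternative were Bak1, Bcl2a1b and Bcl2a1d with CD11b (0.67 to 0.87, 0.59 to 1.04 and 0.57 to 0.91), Bcl2l11 for RFP within BFP+ (0.55 to 0.81), and with CD172a Bcl2l11 (-1.04 to -0.53) and Bcl2 (-4.29 to -1.08). Bcl2l1 with CD8a was past it under 10 of 12 (0.33 to 1.01) and Bbc3 with CD8a under 8 of 12 (-0.71 to -0.21). Bcl2 changed sign for BFP within RFP- without cells of at least 2 markers, an alternative chosen after seeing the data (-0.0336), with CD11b when bins were cut without cells of at least 3 markers (0.10), and with CD301b by share among the 4 tags (0.44). The count of members past the fold, 0 for BFP within RFP+ and 0 for RFP within BFP-, was 1 in each with the same weight for every cell. The count of 1 for BFP within RFP- was 0 without cells of at least 3 or 2 markers. For RFP within BFP+ the count of 1 was 3 without cells of at least 3 markers, and 2 without cells of at least 2, with a hashtag share of 95%, at most 5% mitochondrial UMIs, the same weight for every cell, centring on the median gene, or without the deepest 10% of cells. For CD8a the count of 2 was 1 with centring, without the deepest 10%, or by tag UMIs per mRNA UMI. For CD172a the count of 2 was 4 with the same weight, 5 with centring, 1 without cells of at least 2 markers and 6 by share among tags. For CD301b the count of 1 was 2 with the same weight, with centring and with bins within populations, and 0 without cells of at least 3 or 2 markers or by tag UMIs per mRNA UMI. The cause of a changed count was not tested for any setting. The shares of all genes past the fold under these alternatives are not given here. A changed count is therefore not read as a result about the members. Depth limits Bcl2, with 218 UMIs in cells that were not marker-bearing, and Bbc3, with 1445 in all.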

Other observations

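Depth itself went with several members. In 4 equal bins of cells by mRNA UMIs, with medians of 7332, 12568, 16716.5 and 24523 UMIs, Bcl2a1b had 542, 792, 1060 and 1189 CPM, Mcl1 389.5, 417, 480.3 and 543 CPM, and Bbc3 25.2, 23.7, 18.02 and 13.6 CPM. Bcl2l1 had 98.3, 81.4, 123 and 194 CPM, Bcl2a1d 159, 237, 307 and 336 CPM and Bcl2a1a 96.0, 134, 187 and 195 CPM. Since CPM is already scaled to depth, these are differences in share of the mRNA. They run in the same direction as the tag bins of CD11b for Bcl2a1b, Bcl2a1d and Bcl2a1a, and of CD8a for Bcl2l1 and Bbc3. The same holds for CD172a and CD301b with Mcl1, and for CD301b with Bcl2l1. Pmaip1, at 268, 276, 229 and 213 CPM by depth, ran against its tag bins of CD172a and CD301b.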
